A study of Homo sapiens with 13 samples.

Results

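The 8 genes described here belong to the interleukin-6 (IL-6) cytokine family: the ligands IL6, LIF, IL11 and CLCF1, and the receptor chains IL6R, IL6ST, LIFR and OSMR. Their mRNAs were measured in 2 RNA-seq experiments in MCF10A, an immortalised and non-tumorigenic human breast epithelial line. They were chosen by name as cytokines and receptors of the family, with earlier results of these data known, and are 8 of 38369 gene rows, each found as 1 row. In the time course, MCF10A-Src cells, a derivative of 1 line in which tamoxifen switches on a Src kinase fused to part of the oestrogen receptor, were sequenced untreated at 0 h (1 library) and after 4 h (2 libraries), 12 h (1 library) and 36 h (2 libraries) of tamoxifen. In the over-expression experiment, parental MCF10A cells transduced with the long intergenic RNA (lincRNA) LINC00520 (2 libraries) were compared at 72 h with cells not transduced with it (3 libraries), which 1 label calls untransduced and another mock-transduced. All cells grew in medium with equine serum, hydrocortisone, cholera toxin, EGF and insulin, and no library of cells treated with a vehicle for the same hours was analysed here. The labels call the cell type breast cancer.

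Cytokines of the IL-6 family share the signalling chain gp130, encoded by IL6ST. IL-6 and IL-11 each bind their own receptor chain (IL6R, IL11RA) and then pair gp130 molecules, whereas LIF signals through LIFR with gp130, and oncostatin M through OSMR or LIFR with gp130. The chains activate JAK kinases, which phosphorylate STAT3, and STAT3 induces SOCS3, an inhibitor of the same receptors. In the MCF10A-Src model this route is known for the part of IL6 in the response of the cells to Src.

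The IL6 and LIFR promoters are shown because these genes had the largest changes among the ligands and the receptors with a promoter in the table used. Promoters of 6 of the 8 genes, in 8 windows, were matched in RefSeq (GRCh38.p14); LIF and CLCF1 were not matched. Each line gives 250 bases before the transcript start, 5′ to 3′ on the gene's strand, with matches to a motif in capitals.
IL6, chr7:22726950-22727199, plus strand: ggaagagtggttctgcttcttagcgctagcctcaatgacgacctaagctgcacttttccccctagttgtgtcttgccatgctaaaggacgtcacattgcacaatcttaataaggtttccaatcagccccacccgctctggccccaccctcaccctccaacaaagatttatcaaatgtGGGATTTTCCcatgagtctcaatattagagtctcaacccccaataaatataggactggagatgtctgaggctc
LIFR, chr5:38595406-38595655, minus strand: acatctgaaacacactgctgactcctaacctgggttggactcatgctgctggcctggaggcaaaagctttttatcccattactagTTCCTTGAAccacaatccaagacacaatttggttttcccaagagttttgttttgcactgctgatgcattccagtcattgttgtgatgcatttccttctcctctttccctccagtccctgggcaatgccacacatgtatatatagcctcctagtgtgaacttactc
LIFR, chr5:38557468-38557717, minus strand: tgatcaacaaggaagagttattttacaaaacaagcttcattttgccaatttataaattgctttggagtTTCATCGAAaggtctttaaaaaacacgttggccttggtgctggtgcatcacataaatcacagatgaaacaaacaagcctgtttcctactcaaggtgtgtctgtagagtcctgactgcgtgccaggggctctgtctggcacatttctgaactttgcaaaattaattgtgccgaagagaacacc
The NF-kB motif (GGG, any 2 bases, TT, any base, CC) was matched in the IL6 window by GGGATTTTCC, 73 to 64 bases before the start. The STAT motif TTCNNNGAA was matched by TTCCTTGAA in the first LIFR window, 165 to 157 bases before that start, and by TTCATCGAA in the second, 182 to 174 bases before its start. The AP-1 motif TGANTCA was matched only in the IL11 window, by TGAGTCA at 96 to 90 bases before the start. Both strands were searched, and IL6R, IL6ST, OSMR and the remaining LIFR window held none of the 3 patterns. Of 35116 promoters of the same length, 6.57% held the STAT motif, 6.57% the AP-1 motif and 5.07% the NF-kB motif. A match is a run of letters, not a measured binding site.

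Libraries held 12.6 to 52.3 M fragments, the fewest in 1 of the 36 h libraries and the most at 0 h. Levels are given as CPM, a gene's fragments relative to the library's total, after TMM scaling, an adjustment for library size and composition. Differences were tested with edgeR's quasi-likelihood test on estimated fragment counts, with Benjamini-Hochberg adjustment over 15572 genes in the time course and 12790 in the over-expression experiment. The resulting edgeR adjusted p was read at 0.05, and a gene past it is called higher or lower. The labels do not say whether replicates came from separate cultures, so the spread behind each p-value may be technical. LINC00520 itself stood at 0.139, 0.200 and 0.0882 CPM in untransduced libraries and at 46.2 and 46.0 CPM in transduced ones. In MCF10A-Src cells LINC00520 was 1.59 CPM at 0 h, 1.56 and 0.934 at 4 h, 14.7 at 12 h, and 162 and 202 at 36 h. The 10 breast epithelial markers checked were present at 25.6 CPM or more in every library, with summed levels of 8902 to 14663 CPM in the time course and 9559 to 10912 CPM in the over-expression set.

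IL6, LIF and CLCF1 rose within 4 h of tamoxifen, and none of the 3 was called above 0 h at 36 h. IL11 was hardly detected. The receptor chains moved by much smaller amounts. OSMR and LIFR were called higher at 36 h than at 0 h, but narrowly (edgeR adjusted p 0.0472 and 0.0418). Both calls were lost when either 36 h library was left out. They were also lost with library totals in place of TMM scaling and with limma on log2(FPKM + 0.1). None of the 4 passed the edgeR test at 4 h or 12 h, although with no filter on level IL6ST and OSMR passed at 4 h. At an unadjusted p under 0.05 there were 3 at 4 h (2 higher, 1 lower) and 2 at 12 h (both higher), and DESeq2 gave the same counts at that threshold and also called none. Of the 7 family genes tested, 3 were called against 0 h at 4 h, all higher, beside 6.24% of all genes called (3.15% higher and 3.09% lower). At 12 h, 2 of 7 were called, both higher, beside 4.24% of all genes (3.04% higher and 1.2% lower). At 36 h, 2 were higher and 1 lower, beside 19.4% of all genes (9.99% higher and 9.36% lower). These comparisons share the single 0 h library, and the later ones share the 4 h, 12 h or 36 h libraries in turn. The median log2 change of the 7 genes was 0.67 at 4 h, 0.65 at 12 h and 0.06 at 36 h, beside 0.01, -0.03 and -0.08 over all genes tested.

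**Figure D1:**
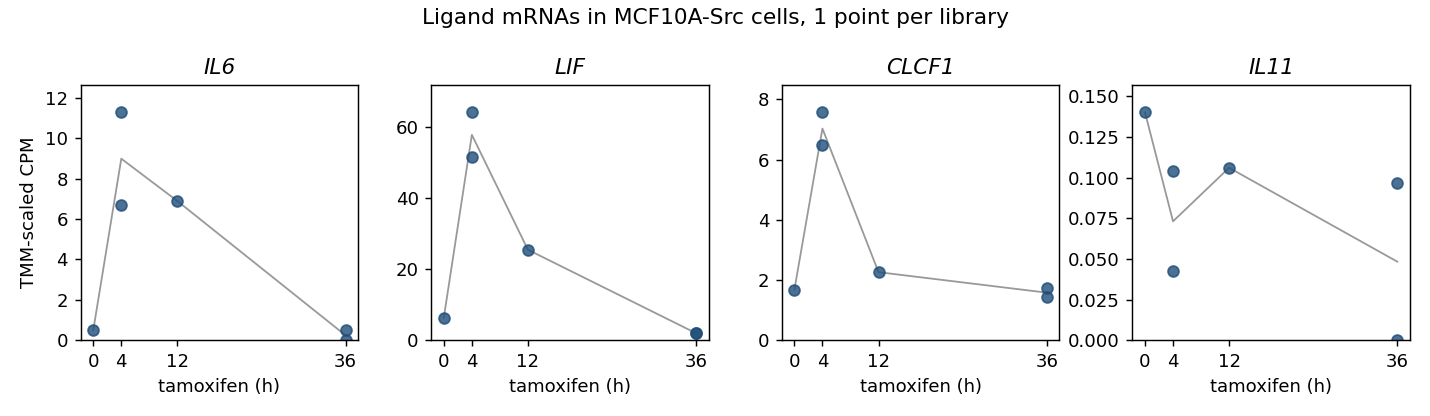
Levels of the 4 ligand mRNAs (TMM-scaled CPM, separate vertical scales) against hours of tamoxifen in MCF10A-Src cells, 1 point per library with a line through the group means. IL6, LIF and CLCF1 are highest at 4 h, where LIF reaches 51.4 and 64.0 CPM, while IL11 stays at 0.140 CPM or less.

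IL6 (chromosome 7, 22765020 to 22771664, hg19 as in the files), the cytokine that names the family, was counted with 28 fragments at 0 h, 129 and 266 at 4 h, 195 at 12 h, and 10 and 0 at 36 h. These counts correspond to 0.490 CPM at 0 h, 6.69 and 11.3 CPM at 4 h, 6.89 CPM at 12 h, and 0.483 and 0 CPM at 36 h. The 3 libraries at 4 h and 12 h thus lay above the 3 libraries at 0 h and 36 h, with no overlap. A count of 0 in the second 36 h library allows up to 0.285 CPM (3 fragments, counting error only). Against 0 h, IL6 was 18.2-fold higher at 4 h (log2 4.19, SE 0.64, edgeR adjusted p 0.0127) and 13.9-fold higher at 12 h (log2 3.80, SE 0.67, edgeR adjusted p 0.0197). From 4 h to 12 h the difference did not pass the test (log2 -0.39, edgeR adjusted p 0.729), and the 4 h and 12 h libraries overlapped. By 36 h IL6 had fallen by 4.84 on the log2 scale from 4 h (28.7-fold, SE 0.61, edgeR adjusted p 8.63e-04) and by 4.46 from 12 h (edgeR adjusted p 0.00598). Its 36 h level was not separated from 0 h (log2 -0.66, SE 0.85, edgeR adjusted p 0.626). Without the first 36 h library, which leaves the library with 0 fragments, IL6 was called lower (fitted value -6.78), with the 4 h pair alone setting the spread. Neither DESeq2 (adjusted p 0.0911 and 0.305) nor limma on log2(FPKM + 1) (adjusted p 0.0755 and 0.123) called IL6 at 4 h and 12 h against 0 h.

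LIF (chromosome 22, 30636441 to 30642981), leukaemia inhibitory factor, had a higher FPKM, the measure scaled for transcript length, than the other 3 ligands in every library but those at 36 h, where CLCF1 (1.08 and 0.934 FPKM) lay above it (0.531 and 0.510 FPKM). It stood at 6.38 CPM at 0 h, 51.4 and 64.0 CPM at 4 h, 25.4 CPM at 12 h, and 2.03 and 1.90 CPM at 36 h. The 4 times did not overlap, in the order 36 h, 0 h, 12 h, 4 h. LIF was 9.05-fold higher at 4 h than at 0 h (log2 3.18, SE 0.27, edgeR adjusted p 0.00161) and 3.98-fold higher at 12 h (log2 1.99, SE 0.27, edgeR adjusted p 0.00560). It fell by 1.18 on the log2 scale between 4 h and 12 h (edgeR adjusted p 0.0354) and by 3.68 between 12 h and 36 h (edgeR adjusted p 7.97e-04). At 36 h LIF was 3.22-fold lower than at 0 h (log2 -1.69, SE 0.26, edgeR adjusted p 0.00412) and 29.1-fold lower than at 4 h (log2 -4.87, SE 0.24, edgeR adjusted p 1.19e-05). Among the 7 family genes tested, it was the only one called lower at 36 h than at 0 h. Limma on log2(FPKM + 1) did not call LIF at 12 h or 36 h against 0 h, or between 4 h and 12 h (adjusted p 0.0754, 0.0875 and 0.136).

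CLCF1 (chromosome 11, locus 67084184 to 67159158), a ligand that signals through LIFR and gp130 with the CNTF receptor, was high in the 4 h libraries only. It was counted at 1.68 CPM at 0 h, 7.57 and 6.49 CPM at 4 h, 2.26 CPM at 12 h, and 1.74 and 1.42 CPM at 36 h. Both 4 h libraries lay above the other 4 libraries, among which the 0 h value fell between the 36 h values. CLCF1 was 4.17-fold higher at 4 h than at 0 h (log2 2.06, SE 0.33, edgeR adjusted p 0.0141). At 12 h its difference from 0 h did not pass the test (log2 0.43, SE 0.37, edgeR adjusted p 0.578), and it was lower than at 4 h by 1.63 on the log2 scale (edgeR adjusted p 0.0360). CLCF1 was 4.36-fold lower at 36 h than at 4 h (log2 -2.12, SE 0.29, edgeR adjusted p 0.00114). Limma on log2(FPKM + 0.1) ended the 4 h call against 0 h (adjusted p 0.0672). The call between 4 h and 12 h was lost with limma on log2(FPKM + 1) (adjusted p 0.0953) or log2(FPKM + 0.1), and with library totals in place of TMM scaling.

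IL11 (chromosome 19, 55874810 to 55881814), the ligand of IL11RA, had 8 fragments at 0 h, 2 and 1 at 4 h, 3 at 12 h, and 2 and 0 at 36 h. No library reached the FPKM of 1 needed to enter the test, and a change in IL11 was not detectable at this depth.

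Of the 7 family genes, 2 were called between 4 h and 12 h, CLCF1 and LIF, both lower, beside 4.6% of all genes (2.96% higher and 1.64% lower). Between 12 h and 36 h, 2 were lower (LIF, IL6) and LIFR was higher, beside 20.9% of all genes (10.3% higher and 10.5% lower). Between 4 h and 36 h, 5 of the 7 were called, the 3 ligands lower and the receptors LIFR and IL6R higher, beside 39.4% of all genes (18.8% higher and 20.5% lower).

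**Figure D2:**
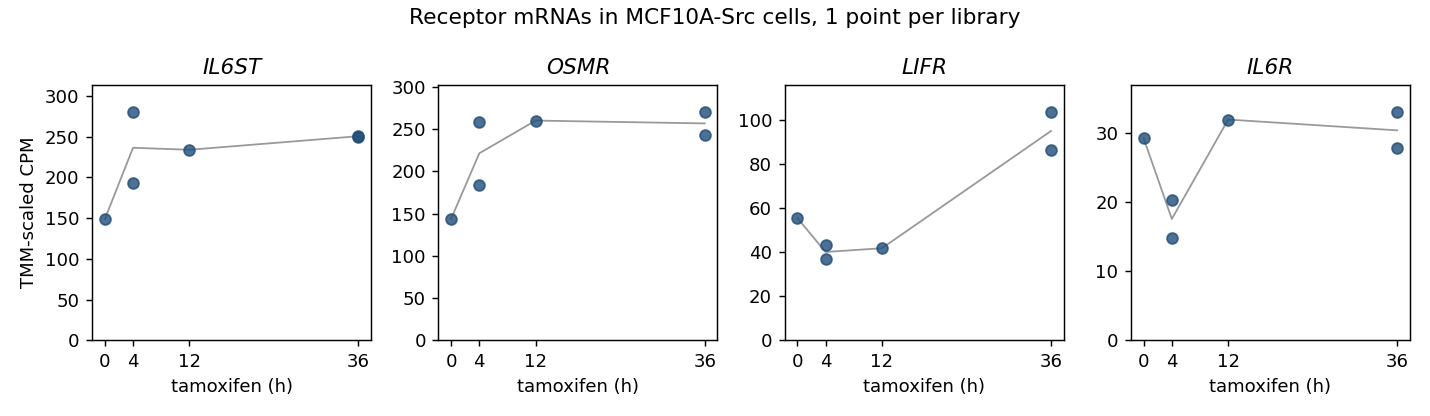
Levels of the 4 receptor mRNAs (TMM-scaled CPM, separate vertical scales from 0) against hours of tamoxifen in MCF10A-Src cells, 1 point per library with a line through the group means. LIFR is highest in both 36 h libraries (86.4 and 103 CPM), IL6R is lowest in both 4 h libraries, and IL6ST and OSMR are lowest at 0 h.

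IL6ST (chromosome 5, 55236694 to 55290763), which encodes the shared chain gp130, stood at 149 CPM at 0 h, 193 and 280 CPM at 4 h, 234 CPM at 12 h, and 250 and 251 CPM at 36 h. All 5 tamoxifen libraries lay above the 0 h library. The differences from 0 h did not pass the test: log2 0.67 at 4 h (SE 0.25, edgeR adjusted p 0.149), 0.65 at 12 h (SE 0.28, edgeR adjusted p 0.254) and 0.75 at 36 h (SE 0.25, edgeR adjusted p 0.0692). The 2 libraries at 4 h differed from each other by more than the 36 h pair did. IL6ST was called at 4 h without the first of them (log2 0.91), and at 12 h and 36 h when either 4 h library was left out. Such a fit leaves the 36 h pair alone to set the spread, so these calls cannot be weighed like those of the full fit. With all libraries, DESeq2 called IL6ST at 36 h (log2 0.82, adjusted p 0.0219).

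OSMR (chromosome 5, 38824734 to 38934402), the oncostatin M receptor chain, stood at 144 CPM at 0 h, 259 and 184 CPM at 4 h, 260 CPM at 12 h, and 270 and 244 CPM at 36 h. As with IL6ST, the 0 h library was the lowest of the 6. OSMR was 1.79-fold higher at 36 h than at 0 h (log2 0.84, SE 0.24, edgeR adjusted p 0.0472). This call was lost without the first 36 h library (log2 0.76, edgeR adjusted p 0.121), without the second (log2 0.91, edgeR adjusted p 0.0647), and with library totals in place of TMM scaling (log2 0.48, edgeR adjusted p 0.182). Limma on log2(FPKM + 0.1) also did not call OSMR at 36 h against 0 h. At 4 h (log2 0.62, SE 0.24, edgeR adjusted p 0.165) and 12 h (log2 0.86, SE 0.27, edgeR adjusted p 0.142) it did not pass. Without the second 4 h library OSMR was called at 4 h (log2 0.85), and it was called at 12 h when either one was left out. In those fits the 36 h pair alone set the spread.

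LIFR (chromosome 5, locus 38475064 to 38685228), the receptor chain for LIF, had the widest span of the receptors, 2.37-fold between the highest and the lowest time. It stood at 55.4 CPM at 0 h, 36.9 and 43.2 CPM at 4 h, 41.7 CPM at 12 h, and 86.4 and 103 CPM at 36 h. Both 36 h libraries were above all others, and the 4 h and 12 h libraries overlapped below the 0 h library. At 4 h and 12 h the differences from 0 h did not pass the test (log2 -0.47 and -0.41, edgeR adjusted p 0.215 and 0.409). LIFR was higher at 36 h than at 4 h by 2.37-fold (log2 1.24, SE 0.17, edgeR adjusted p 0.00138), than at 12 h by 2.27-fold (log2 1.18, SE 0.22, edgeR adjusted p 0.0116) and than at 0 h by 1.71-fold (log2 0.77, SE 0.22, edgeR adjusted p 0.0418). The call against 0 h was lost without the first 36 h library (log2 0.90, edgeR adjusted p 0.0670), without the second (log2 0.64, edgeR adjusted p 0.248) and with library totals (log2 0.42, edgeR adjusted p 0.140). Limma on log2(FPKM + 1) called LIFR neither against 0 h (adjusted p 0.0893) nor against 12 h (adjusted p 0.0521). On log2(FPKM + 0.1), limma called it in neither comparison as well. LIF and the chain that binds it stood at opposite ends of their ranges at 36 h, the ligand at its lowest and LIFR at its highest.

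IL6R (chromosome 1, 154374604 to 154440188), the chain that binds IL-6, stood at 29.3 CPM at 0 h, 14.8 and 20.4 CPM at 4 h, 32.0 CPM at 12 h, and 33.0 and 27.8 CPM at 36 h. The 4 h libraries were the lowest 2 of the 6, at the time when IL6 was highest. Against 0 h the 4 h difference did not pass the test (log2 -0.73, SE 0.25, edgeR adjusted p 0.125). It did without the second 4 h library (log2 -0.99), where the 36 h pair alone set the spread. IL6R was 1.73-fold higher at 36 h than at 4 h (log2 0.79, SE 0.21, edgeR adjusted p 0.0210), a call lost without the first 36 h library (log2 0.67, edgeR adjusted p 0.127) and with library totals (log2 0.54, edgeR adjusted p 0.0788). In all, 4 of the alternatives run ended the call between 4 h and 36 h. The rise from 4 h to 12 h did not pass (log2 0.86, edgeR adjusted p 0.105). It passed when either 4 h library was left out, again with the 36 h pair alone setting the spread.

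In bulk RNA, fewer cells of a type and less RNA per cell cannot be told apart. Some markers of other cell types moved with the 36 h libraries. The 8 immune or blood markers summed to 19.0 to 30.2 CPM up to 12 h and to 69.7 and 108 CPM at 36 h, with CD68 (log2 2.92) and CD14 (log2 1.43) higher than at 0 h (edgeR adjusted p 0.00226 and 0.00751). PTPRC, CD3E, HBB and LYZ, 4 of those 8, were under 1 CPM in every library. The 6 fibroblast markers summed to 83.0 to 106 CPM up to 12 h and to 178 and 203 CPM at 36 h, with DCN higher (log2 1.91, edgeR adjusted p 0.00159) and COL3A1 and LUM under 1 CPM in every library. DCN itself went from 35.0 CPM at 0 h to 114 and 148 CPM at 36 h. The PDGFRA row (43.0 CPM at 0 h) also carries FIP1L1, so its level cannot be assigned to PDGFRA. CSF1R and PDGFRB are 1 row, which enters both the immune or blood sum and the fibroblast sum. Endothelial markers, of which 3 of 4 had a row, summed to at most 6.04 CPM, with CDH5 at 0 throughout. The part of these markers in the family's changes at 36 h was not tested. With library totals in place of TMM scaling, the median of all genes moved from -0.08 to -0.43 at 36 h against 0 h, the calls over all genes went from 1556 higher and 1458 lower to 1016 higher and 3740 lower, and the 36 h calls of OSMR and LIFR against 0 h and of IL6R against 4 h were lost.

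Per transcript length, gp130 and OSMR mRNAs were the most abundant of the family in MCF10A-Src cells. IL6ST had an FPKM of 55.0 at 0 h, 62.1 and 90.8 at 4 h, 73.4 at 12 h, and 80.6 and 100.0 at 36 h. OSMR had 38.2 at 0 h, 70.0 and 55.5 at 4 h, 70.6 at 12 h, and 83.1 and 78.8 at 36 h, so the order of the 2 genes changed between replicates at 4 h and at 36 h. Both lay between the 89.1 and 95.2 percentiles of tested genes. IL6R (3.52 to 8.05 FPKM over the 6 libraries) and LIFR (3.42 to 10.0 FPKM) were well below them and overlapped each other in range. In the parental cells OSMR (32.5 to 38.3 FPKM) lay above IL6ST (25.7 to 30.7 FPKM) in all 5 libraries. IL6R (3.18 to 6.53 FPKM) lay above LIFR (at most 2.78 FPKM) there.

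Some of these rows share their locus with others in the files, and because the strand setting is not given in the sources used here, reads from a gene and an antisense row cannot be told apart. The row linc-IL6-AS, chosen after its values were seen, covers the same interval as IL6 and was counted with 39 fragments at 0 h, 153 and 371 at 4 h, 273 at 12 h, and 9 and 4 at 36 h. These counts were higher than those of IL6 in every library except the first at 36 h. It was called wherever IL6 was called in the time course: log2 4.11 at 4 h and 3.81 at 12 h against 0 h (edgeR adjusted p 0.00545 and 0.00616), and -4.82 and -4.52 at 36 h against 4 h and 12 h (edgeR adjusted p 2.76e-04 and 0.00250). In the parental cells the same row held 4, 1 and 1 fragments in untransduced and 2 and 0 in LINC00520 libraries, each fewer than IL6 there. POLD4, which shares the CLCF1 locus, was not called at 4 h against 0 h (log2 0.28, edgeR adjusted p 0.518) and was higher at 36 h (log2 1.30, edgeR adjusted p 0.0107), unlike CLCF1 in both.

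The genes whose time course was most like that of a family gene were picked by Pearson's r of log2(CPM + 1) over the 6 libraries, among 2595 candidates (2596 for CLCF1). They are the top of a long list over 6 libraries that share times, so no test is given. For IL6 they were NOP56 (r 0.995), linc-CCND3 (r 0.986) and LSG1 (r 0.982). For LIF they were POP1 (r 0.998), NCOA5 (r 0.998) and C17orf96 (r 0.996). For CLCF1 they were PCDH7 (r 0.998), C1orf74 (r 0.989) and ZNF35 (r 0.988), and for LIFR linc-WBP5-AS (r 0.997), PPP2R5C (r 0.996) and KIAA0776 (r 0.995). PCDH7, a protocadherin, had 65.0 CPM at 0 h, 232 and 210 CPM at 4 h, 80.3 CPM at 12 h, and 65.2 and 52.4 CPM at 36 h, the same order of times as CLCF1 apart from the 0 h and 36 h libraries, which overlapped for both.

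Other genes of the pathway were followed as a list of 45, of which 35 entered the time-course test. At 4 h against 0 h, 7 were higher and none lower (median log2 0.24; at an unadjusted edgeR p under 0.05, 11 higher and 1 lower). At 12 h, 10 were higher and 1 lower (median 0.62), and at 36 h 14 were higher and 1 lower (median 0.56). The list thus held more higher than lower calls at each time against 0 h, where all tested genes had 491 higher and 481 lower at 4 h, 474 and 187 at 12 h, and 1556 and 1458 at 36 h. Most of the calls lay among 14 tested targets of STAT3 known from other cells, with 5, 7 and 9 higher at the 3 times and none lower. The list was chosen with earlier results of these data known, so these counts are a description and not a test.

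**Figure D3:**
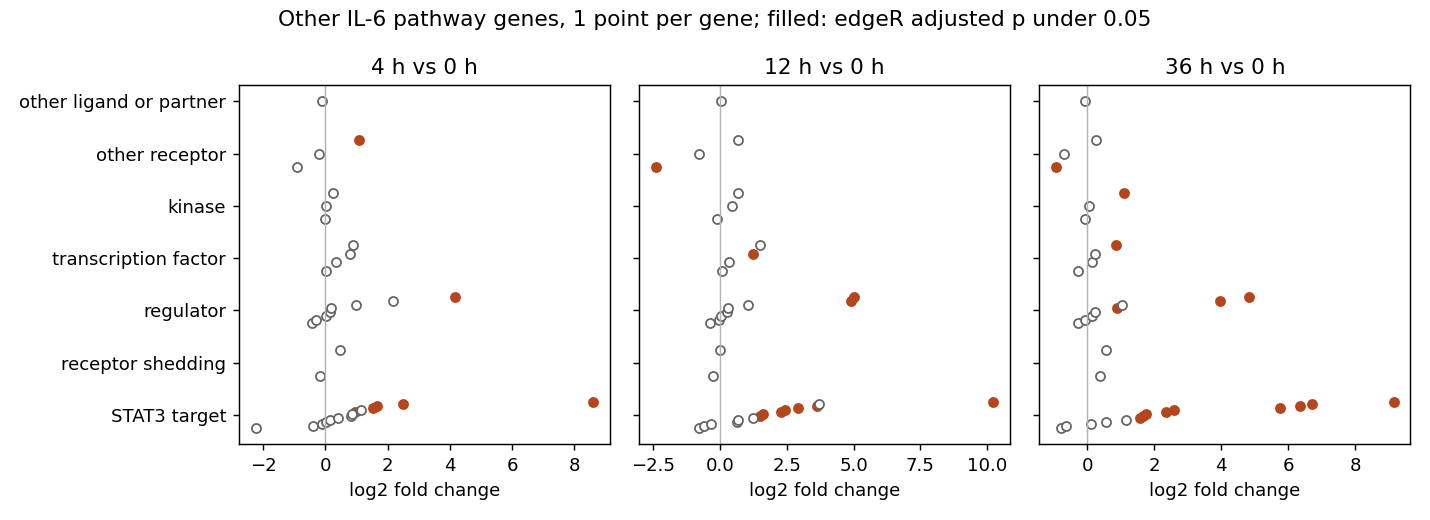
Log2 fold change against 0 h of the pathway genes tested, 1 point per gene in rows by role, filled where the edgeR adjusted p was under 0.05; the horizontal scales differ between panels. Filled points lie mostly to the right of 0, with SOCS3 in the regulator row at log2 4.17, 5.00 and 4.84 from left to right and IL24 in the target row at 8.61, 10.24 and 9.15.

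SOCS3, the feedback inhibitor of gp130 signalling, stood at 14.3 CPM at 0 h, 222 and 294 CPM at 4 h, 458 CPM at 12 h, and 426 and 396 CPM at 36 h. It was 18.0-fold higher at 4 h (edgeR adjusted p 6.32e-04) and still 28.7-fold higher at 36 h (edgeR adjusted p 4.54e-05), when IL6, LIF and CLCF1 were no longer called above 0 h. IL24, a cytokine gene, went from 0.403 CPM (23 fragments) at 0 h to 165 and 152 CPM at 4 h, 491 CPM at 12 h, and 229 and 233 CPM at 36 h. It was 390-fold higher at 4 h (log2 8.61, SE 0.30, edgeR adjusted p 4.23e-05). JUNB (2.86-fold), an AP-1 subunit, and VEGFA (3.15-fold), an angiogenic factor, were also higher at 4 h (edgeR adjusted p 0.00695 and 0.00885).

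The row of SERPINA3, a secreted protease inhibitor, which in these files also carries SERPINA5, stood at 24.2 CPM at 0 h, 46.5 and 46.6 CPM at 4 h, 183 CPM at 12 h, and 1299 and 1326 CPM at 36 h. It was 1.93-fold higher at 4 h than at 0 h (edgeR adjusted p 0.0296), 54.3-fold higher at 36 h than at 0 h (edgeR adjusted p 1.80e-05) and 28.2-fold higher than at 4 h (edgeR adjusted p 4.63e-06). HP, which encodes haptoglobin, had 0.280 CPM at 0 h, 0.519 and 0.721 CPM at 4 h, 3.53 CPM at 12 h, and 25.3 and 21.7 CPM at 36 h. MCL1 and TIMP1, an anti-apoptotic protein and a metalloproteinase inhibitor, were 4.16-fold and 2.82-fold higher at 36 h than at 4 h (edgeR adjusted p 1.33e-04 and 4.89e-04). In that comparison 13 of the 35 were higher and 6 lower (median log2 0.14, beside -0.04 over all genes), where 39.4% of all genes were called. The STAT3 targets were mixed there, with 9 of the 14 tested higher and 4 lower. From 12 h to 36 h, 7 were higher and 1, IL24, was lower (log2 -1.09, edgeR adjusted p 0.00692), beside 20.9% of all genes called.

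STAT3 itself stood at 270 CPM at 0 h, 470 and 457 CPM at 4 h, 631 CPM at 12 h, and 523 and 460 CPM at 36 h, the 0 h library being the lowest. It passed the test at 12 h (log2 1.22, edgeR adjusted p 0.0210) and 36 h (log2 0.86, edgeR adjusted p 0.0197) and not at 4 h (log2 0.78, edgeR adjusted p 0.0557). Of the JAK kinases, JAK2 was higher at 36 h (log2 1.11, edgeR adjusted p 0.00897), whereas JAK1 was not called at any time.

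Of the remaining ligands and receptor chains, oncostatin M, the ligand of OSMR, had no fragments in 4 of the 6 time-course libraries and 2 fragments in each of the others, and none in the parental cells. IL27RA, the IL-27 receptor chain, was higher at 4 h than at 0 h (29.0 CPM against 54.8 and 67.5 CPM; log2 1.08, edgeR adjusted p 0.0380) and lower at 36 h than at 4 h (log2 -0.82, edgeR adjusted p 0.0106). IL31RA, a partner chain of OSMR in the IL-31 receptor, stood at 12.9 CPM at 0 h, 7.06 and 6.75 CPM at 4 h, 2.44 CPM at 12 h, and 7.58 and 5.88 CPM at 36 h. Its lowest value was that of the 12 h library, where it was lower than at 0 h (log2 -2.40, edgeR adjusted p 0.00562) and 2.82-fold lower than at 4 h (edgeR adjusted p 0.0356). IL11RA was not called in any of the 6 time comparisons. The row that carries CNTF also carries ZFP91, so its level of 194 to 227 CPM cannot be assigned to CNTF, and it was not called in the time course.

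With LINC00520 over-expressed in parental cells, the IL-6 receptor chain IL6R and the LIF receptor chain LIFR were each lower by 1.75-fold or more, CLCF1 was 1.46-fold higher, and the shared chain gp130 was not called. Transduction itself cannot be told apart from LINC00520 here, because 1 label calls the controls untransduced and the control lincRNA libraries were not analysed. Of the 6 family genes tested, 1 was called higher and 4 lower. This stands beside 50% of all genes called, 25.2% higher and 24.8% lower, so a call by itself is common in this comparison. The replicates of this experiment were close (common coefficient of variation 0.0249, against 0.162 in the time course), and small differences passed the test.

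**Figure D4:**
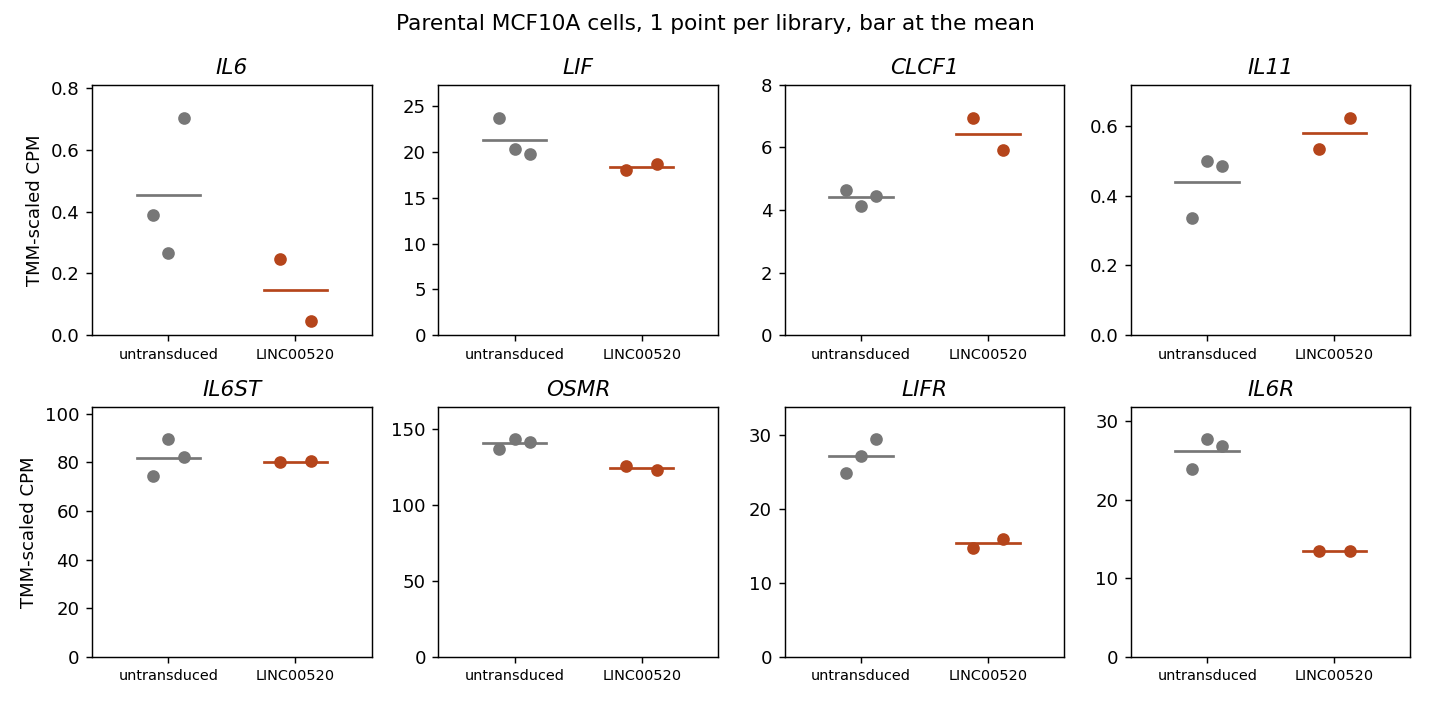
Levels of the 8 family mRNAs in parental MCF10A cells (TMM-scaled CPM, each vertical scale from 0), 1 point per library, 3 untransduced and 2 with LINC00520, with a bar at each group's mean. The groups are well apart for IL6R and LIFR, close for OSMR and LIF, and overlapping for IL6ST; IL6 and IL11 lie under 1 CPM.

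IL6R stood at 23.9, 27.7 and 26.9 CPM in untransduced libraries and at 13.5 CPM in both LINC00520 libraries. The groups did not overlap, and the difference was 1.93-fold (log2 -0.95, SE 0.07, edgeR adjusted p 1.25e-10). LIFR stood at 24.8, 27.1 and 29.4 CPM against 14.8 and 16.0 CPM. It was 1.75-fold lower (log2 -0.81, SE 0.07, edgeR adjusted p 1.82e-09), again with no overlap. These 2 were the only family genes called in the authors' deposited table of the same comparison, with log2 values of -0.96 for IL6R and -0.81 for LIFR and a q-value of 0.00123 for each.

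OSMR stood at 137, 143 and 141 CPM against 126 and 123 CPM, groups that did not overlap, a 1.13-fold difference (log2 -0.17, SE 0.03, edgeR adjusted p 1.14e-04). IL6ST stood at 74.3, 89.5 and 82.1 CPM against 80.2 and 80.4 CPM, with the LINC00520 libraries inside the untransduced range (log2 -0.03, SE 0.05, edgeR adjusted p 0.699). Without the first untransduced library, IL6ST passed as lower (log2 -0.10, edgeR adjusted p 0.0373). The receptor chains thus differed in size of change, from the gp130 value near 0 to the IL6R value near -1 on the log2 scale.

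LIF stood at 23.7, 20.3 and 19.8 CPM against 18.0 and 18.6 CPM (log2 -0.23, SE 0.07, edgeR adjusted p 0.0118). The groups lay close together, and the call was lost with DESeq2 (adjusted p 0.0615), with limma on log2(FPKM + 1) (adjusted p 0.0814), and without the first untransduced library (edgeR adjusted p 0.119), the first LINC00520 library (0.122) or the second (0.0507). CLCF1 stood at 4.66, 4.13 and 4.45 CPM against 6.96 and 5.93 CPM, both LINC00520 libraries being above all untransduced ones (log2 0.55, SE 0.12, edgeR adjusted p 4.47e-04). POLD4, at the same locus, went the other way (log2 -0.31, edgeR adjusted p 9.37e-04). IL6 had 14, 8 and 16 fragments against 6 and 1, and IL11 had 12, 15 and 11 against 13 and 14, and neither reached the level needed to enter the test. When the filter on level was dropped, IL6 had a log2 value of -1.49 (edgeR adjusted p 0.0304) and IL11 one of 0.43 (edgeR adjusted p 0.497). The IL6 value rests on 38 fragments in all 3 untransduced libraries and 7 in both LINC00520 libraries.

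**Figure D5:**
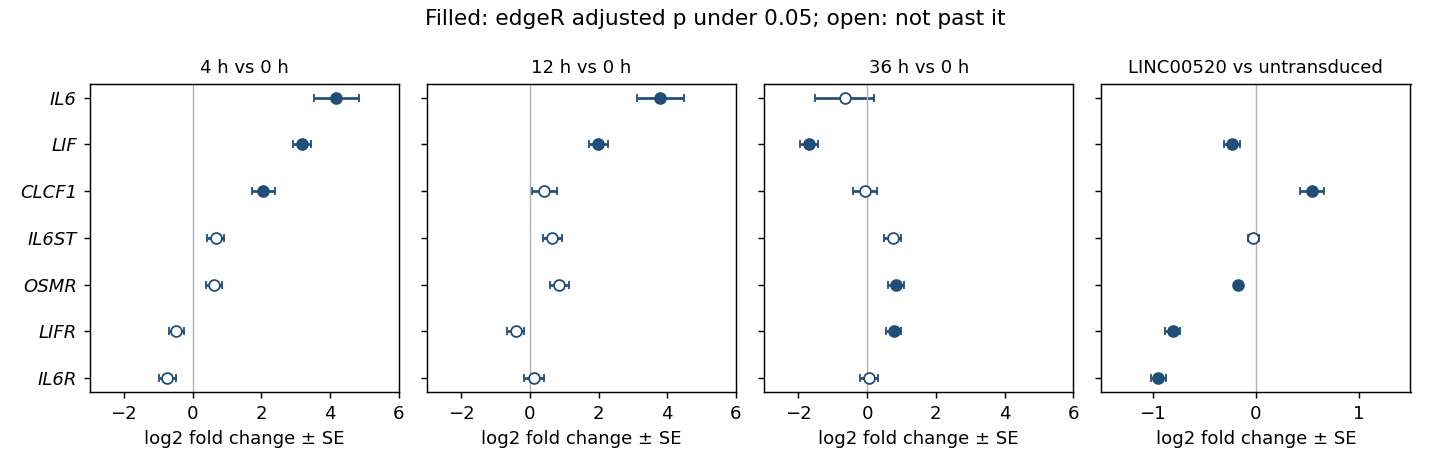
Log2 fold change ± SE of the family genes tested, against 0 h at 3 times of tamoxifen and with LINC00520 against untransduced cells, filled where the edgeR adjusted p was under 0.05; the last panel has its own scale and omits IL6, which was not tested there. LIFR lies at 0.77 at 36 h of tamoxifen and at -0.81 with LINC00520.

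Among the 45 pathway genes, 32 entered the over-expression test, and 5 were higher and 13 lower (median log2 -0.07, beside 0.00 over all genes). This count stands beside 50% of all genes called. Of 11 STAT3 targets tested, 7 were lower and 1 higher. The smallest p-values were those of the SERPINA3 row, of BCL6, a transcriptional repressor, and of CEBPD and FOS, transcription factors. SERPINA3 stood at 122, 141 and 130 CPM against 41.3 and 42.6 CPM, a 3.12-fold difference with no overlap (log2 -1.64, SE 0.05, edgeR adjusted p 7.38e-18). BCL6 was lower by 2.09-fold (edgeR adjusted p 1.68e-13), CEBPD by 1.56-fold (edgeR adjusted p 9.02e-10) and FOS by 1.57-fold (edgeR adjusted p 8.27e-09). STAT3 was 1.17-fold lower, from 238, 243 and 240 CPM to 203 and 209 CPM (edgeR adjusted p 9.77e-07). SOCS3 stood at 7.25, 5.46 and 5.11 CPM against 6.05 and 3.66 CPM, with overlapping groups.

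Other ligands and receptors of the list were also measured with LINC00520. IL11RA, the IL-11 receptor chain, stood at 4.85, 5.26 and 4.89 CPM against 3.13 and 2.81 CPM (log2 -0.75, edgeR adjusted p 6.53e-05). CTF1, cardiotrophin 1, another ligand of LIFR and gp130, had 93, 70 and 48 fragments against 32 and 39 (log2 -0.64, edgeR adjusted p 0.00987). IL27RA was slightly lower (log2 -0.15, edgeR adjusted p 0.0391), the shared row of CNTF and ZFP91 was slightly higher (log2 0.17, edgeR adjusted p 5.21e-05), and IL31RA was not called (log2 -0.01, edgeR adjusted p 0.914). The 8 immune or blood markers summed to 35.3 to 36.6 CPM in untransduced libraries and to less than that, but at least 32.5 CPM, in the LINC00520 libraries. Within that list CD14 was lower (9.25, 11.6 and 10.0 CPM against 7.08 and 6.51 CPM; log2 -0.59, edgeR adjusted p 5.68e-05). HBB was called higher on 3, 0 and 0 fragments against 13 and 15 (edgeR adjusted p 5.59e-05). The endothelial marker KDR was lower (log2 -0.36, edgeR adjusted p 0.00103). The part of these markers in the family's differences was not tested. The 6 fibroblast markers summed to 96.7 to 100.0 CPM and 99.2 to 99.3 CPM, with the same shared rows for PDGFRA and PDGFRB as in the time course.

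In the authors' deposited table of the time course, 3 of the 8 family genes were significant at 4 h against 0 h, namely LIF, IL6 and CLCF1. At 12 h against 0 h, LIF, IL6 and OSMR were significant there, and at 36 h LIF, OSMR and LIFR. The deposited table did not call IL6 between 4 h and 36 h (q-value 0.0604) or between 12 h and 36 h (q-value 0.225), where the edgeR test did. It called IL6R as lower at 4 h than at 12 h (q-value 0.0142), where the edgeR test did not.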

How the data were processed

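PolyA RNA was sequenced in 13 samples, of which 11 were matched to columns by name; the 2 control lincRNA samples and 7 further libraries of the over-expression table, which matched no label, were not analysed here. Per the submitters' processing notes, CASAVA 1.4, TopHat on hg19 and Cuffdiff were used; their other versions, the annotation and the strand setting are not given in the sources used here. Per the file headers, the deposited gene tables give, for each library, an estimated count of fragments and an FPKM, both made by the authors with Cuffdiff. The authors' deposited calls tables hold a q-value and a log2 fold change. The log2 column of the deposited time-course calls held values too large for one, so only the sign of that score was taken.

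The estimated counts were rounded first (92.4% to 99.9% were already whole, within 1e-06). Genes were tested where FPKM reached 1 in at least 1 library of the time course or 2 of the over-expression set, with a status of OK throughout, which 59 and 22 rows lacked. edgeR 4.0.16 (R 4.3.3) was run with TMM scaling, estimateDisp, glmQLFit and glmQLFTest, all libraries of an experiment in 1 fit, 2-sided, with Benjamini-Hochberg adjustment at 0.05. Groups of 1 library (0 h and 12 h) were assumed to vary like the pairs, with 2 residual degrees of freedom (3 in the over-expression fit). The SE is the absolute log2 change over the square root of the F statistic. Library depth was 12.6 to 52.3 M fragments, and a floor of 3 fragments covers counting error only.

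Alternatives were relative log expression (RLE) factors, library totals, DESeq2 1.42.0, limma 3.58.1 on log2(FPKM + 1) or log2(FPKM + 0.1), other filters on level, each replicate left out, and a replicate block. Scripts were tested on simulated data. The LINC00520 row is that of the lincRNA at its locus. All 8 family genes are named throughout; of the pathway list, up to 4 called genes with the smallest p per comparison and any tested ligand or receptor are named (some items of the lists are not reported here), and SOCS3, STAT3, the JAK kinases, oncostatin M, linc-IL6-AS and POLD4 were added where the rule did not take them, after their values were seen. The 8 genes, the pathway list and the markers were chosen with earlier results of these data known. Coordinates are hg19 as in the files; promoter sequences are from RefSeq on GRCh38.p14.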

Additional observations from a re-analysis of the deposited data

How the results depend on the processing

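Of the family genes called, edgeR's quasi-likelihood test gave 3 at 4 h against 0 h, 2 at 12 h, 3 at 36 h, 2 between 4 h and 12 h, 3 between 12 h and 36 h, 5 between 4 h and 36 h, and 5 with LINC00520. The last 2 counts stayed within 1.5 times under every alternative run. At 4 h, limma on log2(FPKM + 0.1) called 1 and the fit with no filter on level 5. At 12 h, DESeq2 called 1 and limma 0 with either pseudocount (3 at an unadjusted p under 0.05). At 36 h, library totals called 1, as did limma with either pseudocount. Between 4 h and 12 h, library totals called 1 and limma 0 with either pseudocount (3 at an unadjusted p under 0.05), and between 12 h and 36 h limma on log2(FPKM + 0.1) called 1. With 1 library left out the counts ranged from 3 to 5 at 4 h (5 without 4 h replicate 2), 2 to 4 at 12 h (4 without either 4 h library), 1 to 4 at 36 h (1 without 36 h replicate 2), 2 to 3 between 4 h and 12 h, 4 to 6 between 4 h and 36 h, and 4 to 5 with LINC00520, and stayed at 3 between 12 h and 36 h. Leaving out a 4 h library leaves the 36 h pair alone to set the spread.

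Over single genes and alternatives, 474 values kept direction and side of the threshold, 37 lost a call, 21 gained one and 22 changed sign, the last only for uncalled differences; the cause was not tested. CLCF1 at 36 h against 0 h became 0.0067 with RLE factors and 0.017 and 0.029 with limma (-0.24 to 0.050 with 1 library left out). IL6R at 36 h against 0 h became -0.29 with library totals (-0.071 to 0.18 with 1 left out), and at 36 h against 12 h ranged from -0.20 to 0.049. IL6ST became 0.045, -0.21 and -0.17 with library totals at 12 h against 4 h, 36 h against 12 h and 36 h against 4 h. With 1 left out, IL6ST ranged from -0.26 to 0.31 at 12 h against 4 h, -0.16 to 0.42 at 36 h against 4 h (called higher without 4 h replicate 2, edgeR adjusted p 0.0316), and -0.10 to 0.044 with LINC00520. OSMR at 36 h against 12 h became 0.024 with RLE factors and with DESeq2, and 0.19 and 0.20 with limma (-0.090 to 0.056 with 1 left out). OSMR at 36 h against 4 h became -0.045 with library totals and was called higher without 4 h replicate 1 (0.48, edgeR adjusted p 0.0218). With 1 left out, IL6 at 12 h against 4 h ranged from -0.71 to 0.070 and LIFR from -0.047 to 0.20.

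Over all genes, calls at 4 h went from 972 to 180 and 158 with limma, 2794 with no filter, and 1020 to 4375 with 1 library left out. At 12 h they went from 661 to 223, 252 and 1717 likewise and 743 to 2807, and at 36 h from 3014 to 4756 with library totals, 1554 and 1320 with limma, 5066 with no filter, and 1838 to 6101. Between 4 h and 12 h they went from 716 to 43 and 55 with limma, 1768 with no filter, and 776 to 3194. Between 12 h and 36 h they went from 3250 to 1090 and 648 with limma and 1446 to 6434 with 1 left out, and with library totals split into 836 higher and 3275 lower. Between 4 h and 36 h they went from 6130 to 3549 to 7385 with 1 left out, and with library totals split into 1861 higher and 4823 lower. Pathway calls went from 7 to between 3 and 12 at 4 h, 11 to between 4 and 18 at 12 h, 5 to between 0 and 13 from 4 h to 12 h, 8 to between 4 and 15 from 12 h to 36 h, and 19 to 12 between 4 h and 36 h without either 36 h library. Deviations of libraries with the same number were not correlated enough to pair them (r 0.102 between 4 h and 36 h, and -0.0566 and -0.0468 with LINC00520). With a replicate block, 5 family genes were called between 4 h and 36 h and 5 with LINC00520, as without it, and all-gene calls went from 6130 to 6459 and from 6396 to 5500. Depth limits IL6 at 36 h and in the parental cells, and IL11 throughout.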

Other observations

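The 3 lincRNA rows at the receptors' loci were chosen after their values were seen. The 2 tables were scaled separately, so no test was made. How many of all rows lie apart between the 2 experiments was not counted, so a separation is not shown to be particular to these loci. The row linc-IL6R-AS, inside the IL6R locus, had 165 fragments at 0 h, 47 and 46 at 4 h, 119 at 12 h, and 80 and 34 at 36 h of tamoxifen, and 0 to 5 fragments in the 5 libraries of parental cells. The row linc-OSMR-BP, at the OSMR locus, had 443 to 2940 fragments in the time-course libraries and 62 to 129 in the parental ones, where OSMR itself had 2567 to 8209 and 2765 to 4918. The remaining row, linc-LIFR-BP, had 5 to 65 fragments in the time course and 3 to 23 in the parental cells, with overlapping ranges. Linc-OSMR-BP was not called in any of the 6 time comparisons. Whether the libraries of the 2 experiments kept strand in the same way was not tested.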
